A study of Mus musculus with 12 samples.

Results

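The Slc22 and Slco families are membrane carriers that move organic cations, anions and zwitterions into and out of cells. They were taken from a liver RNA-seq table as every locus that carries a symbol of the form Slc22a or Slco followed by its number, whether alone or merged with other names. The rule gave 46 of the 27109 loci in the table, 30 of the Slc22 family and 16 of the Slco family. These loci hold 40 symbols, of which 25 are Slc22a genes and 15 are Slco genes, and they lie in 35 genomic intervals.

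The samples were whole livers of C57BL/6 mice, 3 libraries in each of 4 groups, and they were taken 6 h after an intraperitoneal injection. Knockout mice carried a deletion of Atf4 limited to the liver (LsATF4-KO in the labels). Atf4 encodes a transcription factor that cells make under endoplasmic reticulum (ER) stress. Knockout mice received either 1 mg/kg tunicamycin or the vehicle, 0.3% DMSO. Tunicamycin is an inhibitor of N-linked protein glycosylation that is used to provoke ER stress. Wild-type mice received the same doses of tunicamycin or DMSO. The labels give neither the driver of the deletion nor the age or sex of the mice, and a whole liver holds cells other than hepatocytes. Since the RNA comes from bulk tissue, fewer cells of a type and less RNA per cell cannot be told apart.

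A hepatocyte takes up drugs, bile acids, hormones and bilirubin from blood across its basolateral membrane and exports many of them into bile across its canalicular membrane. Slco proteins (the OATPs) exchange large organic anions such as bile acids and conjugated steroids at the basolateral side. Slc22 proteins include the organic cation transporters (OCT), the carnitine and zwitterion transporters (OCTN) and the organic anion transporters (OAT), several of which are best known from the kidney tubule.

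Each group has 1 pooled FPKM (a fragment count corrected for the length of the transcript and the size of the library) per locus in the authors' deposited table, so levels are given without a spread over libraries, and the depth of the libraries is unknown. A locus was called where the deposited Cuffdiff q-value was under 0.05. The Atf4 locus is merged with Cacna1i. It had 114 FPKM in knockout livers with tunicamycin and 22.8 FPKM with DMSO, against 356 and 46.9 FPKM in wild-type livers. The authors' deposited table called it lower in the knockout under tunicamycin (log2 -1.64, q = 0.000396) and not under DMSO (-1.04, q = 0.270). It still rose with tunicamycin in the knockout (log2 2.32, q = 0.000396). The ATF4 target asparagine synthetase, Asns, had 2.60 FPKM in knockout and 15.5 FPKM in wild-type livers with tunicamycin. Of 4 ER stress genes tested between genotypes under tunicamycin, 2 were called lower, Atf4 and Asns, against 2.19% of all tested loci. Ddit3 (2066 FPKM in knockout and 2385 FPKM in wild type, q = 0.706) and Trib3 (272 and 386 FPKM, q = 0.0951) were not called. With tunicamycin both rose, at log2 7.69 and 6.10 in the knockout and 7.29 and 6.00 in wild type. All 3 libraries of knockout livers with DMSO were read on lane 5, whereas lane 4 held the remaining 9. Lane therefore cannot be told apart from genotype under DMSO or from tunicamycin in the knockout. The hepatocyte markers Ttr, Apoa1, Serpina1a and Cps1 summed to 6375 FPKM in knockout livers with tunicamycin and 11100.2 FPKM with DMSO, against 7146 and 13586 FPKM in wild-type livers. Albumin, Alb, was listed at 0 in every group with a status saying that the data were too deep to estimate. A 0 in this table can therefore be a failed estimate. The members listed at 0 in every group did not carry that status and were listed as not tested.

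Among the members, 27 loci reached 1 FPKM in at least 1 group, 19 reached 10 FPKM and 7 reached 100 FPKM. The other 19 loci stayed under 1 FPKM in every group. Of these, Slc22a13, Slc22a16, Slc22a19, Slc22a20, Slc22a22, Slco6b1, Slco6c1 and Slco6d1 were listed at 0 in all 4 groups. The remaining 11 were Slc22a2, Slc22a6, Slc22a8, Slc22a12, Slc22a14, Slco1a5, Slco1a6, Slco1c1, Slco4a1, Slco4c1 and Slco5a1, and the highest value among them was 0.283 FPKM, for Slco1a5 in wild-type livers with tunicamycin. This set includes the main anion carriers of the kidney tubule, OAT1 (Slc22a6) and OAT3 (Slc22a8). Kidney markers were at the same floor: 13 of them summed to between 0.0659 and 0.0836 FPKM per group, and Umod, Slc12a1, Slc5a2 and Kap were listed at 0 in all groups.

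Sequences bear on which of these loci can be read as single genes. Slc22a26, Slc22a27, Slc22a28, Slc22a29 and Slc22a30 are neighbouring copies of the mouse OAT cluster on chromosome 19, and most of them are little characterised. The 90-base stretch of coding sequence in which the 5 copies are most alike (coding bases 199 to 288, GENCODE M21 on GRCm38, all on the minus strand) is printed to show how few letters separate them. Capitals mark the 8 columns that are not alike in all 5 copies, and the other 82 columns are alike.
Slc22a26: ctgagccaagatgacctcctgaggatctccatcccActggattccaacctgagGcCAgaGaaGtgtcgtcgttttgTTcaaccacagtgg
Slc22a27: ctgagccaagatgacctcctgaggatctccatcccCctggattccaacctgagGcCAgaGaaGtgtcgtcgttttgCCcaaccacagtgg
Slc22a28: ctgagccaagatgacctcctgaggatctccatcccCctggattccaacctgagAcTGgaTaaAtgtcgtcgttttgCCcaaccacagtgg
Slc22a29: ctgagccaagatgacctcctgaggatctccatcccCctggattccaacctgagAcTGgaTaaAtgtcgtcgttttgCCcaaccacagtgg
Slc22a30: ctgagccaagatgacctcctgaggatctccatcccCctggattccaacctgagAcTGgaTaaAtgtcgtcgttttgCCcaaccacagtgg
The stretches lie at chr19:7802162-7802251 for Slc22a26, chr19:7926483-7926572 for Slc22a27, chr19:8131489-8131578 for Slc22a28, chr19:8218386-8218475 for Slc22a29 and chr19:8404618-8404707 for Slc22a30. Over these bases Slc22a28, Slc22a29 and Slc22a30 are letter for letter the same.

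Over the whole coding sequence, Slc22a28 and Slc22a30 are alike at 98.8% of bases, and Slc22a27 and Slc22a29 at 97.3%. Slc22a26 stands apart from the other 4 copies, with 74.0% to 74.4% of bases alike. Cut into windows of 50 bases, 57.0% of Slc22a30 windows, 51.5% of Slc22a28 windows, 39.8% of Slc22a29 windows and 37.4% of Slc22a27 windows occur unchanged in another copy, against 0% for Slc22a26. A fragment that lies wholly within a shared window cannot be assigned to 1 copy by its sequence. Fragments that reach beyond such a window were not examined. Of the windows of each Slco1a gene on chromosome 6, 4.23% to 6.73% occur unchanged in another of these genes. Between pairs of them 83.9% to 89.4% of coding bases are alike and 2.45% to 5.10% of windows are shared.

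**Figure D1:**
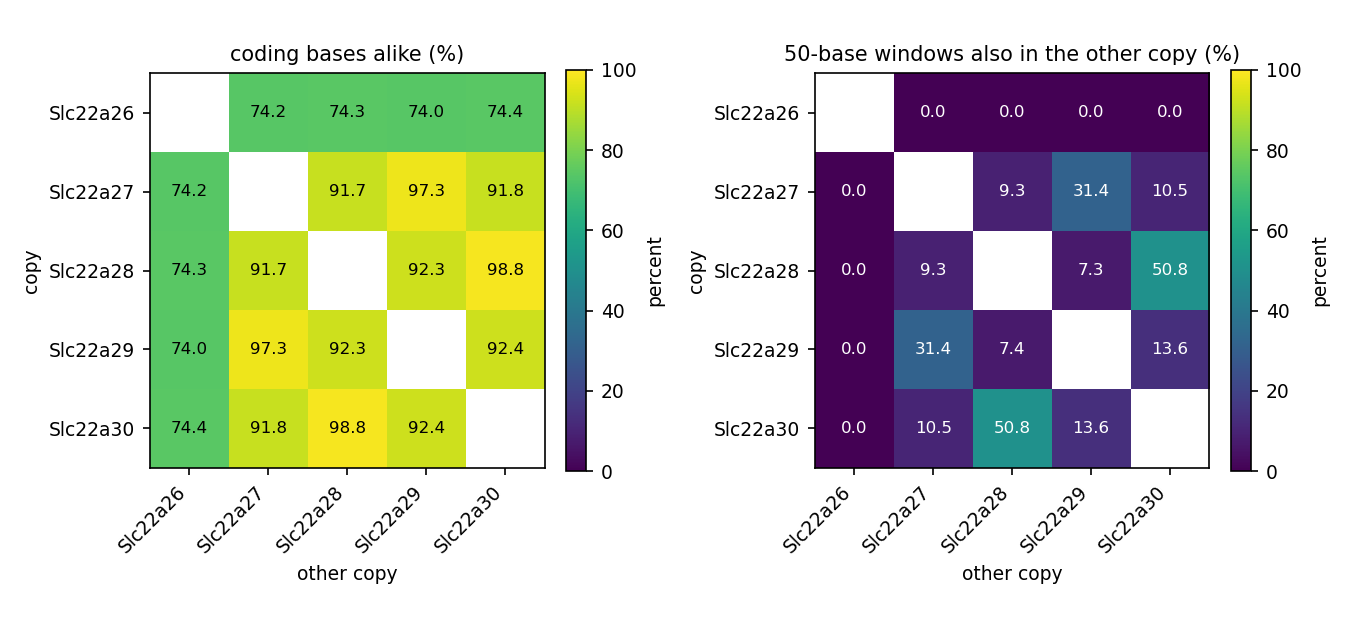
Likeness of 5 Slc22a copies on chromosome 19, in percent of aligned coding bases (left) and of 50-base coding windows that also occur in the other copy (right). Slc22a28 and Slc22a30 share most (98.8% of bases, 50.8% of windows), and Slc22a26 shares no window with any of the others.

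Most of these copies also share a single interval, and whether their likeness is the reason was not tested. The 10 member loci named Slc22a27 (6 loci, called a to f here), Slc22a28/Slc22a30 (1 merged locus), Slc22a29 (loci a and b) and Slc22a30 all carry the same interval, chr19:7938878-8479595 on mm9, which 13 loci of the table share. The Slco1a4 symbol likewise stands at 2 loci of a shared interval, chr6:141676249-141804766 on mm9. Loci of at least 1 FPKM outside the chromosome 19 interval are therefore described first.

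Slco1b2 was the highest of these loci. It is the mouse counterpart of human OATP1B1 and OATP1B3 and takes bile acids, bilirubin conjugates and statins into hepatocytes. It had 164 FPKM in knockout livers with tunicamycin and 359 FPKM with DMSO, against 264 and 463 FPKM in wild-type livers with tunicamycin and with DMSO. Both tunicamycin groups lay below both DMSO groups, and within each treatment the knockout value was the lower one. It fell with tunicamycin in both: the authors' deposited table gives log2 fold changes of -1.13 in the knockout (SE 0.25, q = 0.000396) and -0.81 in wild type (SE 0.25, q = 0.00938).

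Slco1a4, also called Oatp1a4, takes up bile acids, steroid conjugates and digoxin. Its locus a had 29.7 FPKM in knockout livers with tunicamycin and 63.7 FPKM with DMSO, against 37.7 and 67.5 FPKM in wild-type livers. It fell in both, with log2 changes of -1.10 (q = 0.000396) in the knockout and -0.84 (q = 0.000747) in wild type, by the authors' deposited table. Locus b of the same interval also had lower values with tunicamycin (1.58 and 9.93 FPKM in the knockout with tunicamycin and DMSO, 2.46 and 7.58 FPKM in wild type), but it was not called (q = 0.131 and 0.176 in the authors' deposited table). Slco2b1, a carrier of sulfated steroids, had 17.8 FPKM in knockout livers with tunicamycin and 48.6 FPKM with DMSO, against 20.8 and 53.7 FPKM in wild-type livers. Its log2 changes of -1.45 in the knockout and -1.37 in wild type (q = 0.000396 each, the authors' deposited table) were the deepest falls called for a Slco gene in each genotype.

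Slco1a1, the other abundant hepatocyte Oatp of this subfamily, did not follow them. It had 55.5 FPKM in knockout livers with tunicamycin and 67.8 FPKM with DMSO, against 66.9 and 58.0 FPKM in wild-type livers. The log2 changes with tunicamycin were -0.29 (95% interval -0.69 to 0.11) in the knockout and 0.20 (-0.25 to 0.66) in wild type, with q = 0.346 and 0.604 in the authors' deposited table. Slco3a1, a carrier of prostaglandins and thyroid hormone, lay between 1.63 and 2.25 FPKM in the 4 groups and was called in no comparison, and none of its 4 unadjusted Cuffdiff p-values was under 0.05.

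Slco2a1 is the prostaglandin transporter, known from vessel endothelium. It had 18.2 FPKM in knockout livers with tunicamycin and 27.1 FPKM with DMSO, against 25.0 and 26.3 FPKM in wild-type livers, so that 1 group of the 4 stood lower. The authors' deposited table calls it lower with tunicamycin in the knockout (log2 -0.58, SE 0.20, q = 0.0154) and not in wild type (-0.08, q = 0.851). The difference between the responses, knockout minus wild type, was -0.50 (95% interval -1.05 to 0.04), which did not pass after adjustment over all loci (q = 1.00). Of 6 markers of sinusoidal endothelium, the authors' deposited table called 4 lower with tunicamycin in the knockout, against 14.8% of all tested loci. In wild type it called 2 higher and 0 lower, against 18.1% and 19% of all tested loci. With DMSO it called 5 of 6 higher in the knockout, against 1.39% of all tested loci, with lane and genotype not separable. The markers summed to 71.1 FPKM in knockout livers with tunicamycin and 121 FPKM with DMSO, against 99.0 and 80.5 FPKM in wild-type livers. Their part in the Slco2a1 value was not tested.

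**Figure D2:**
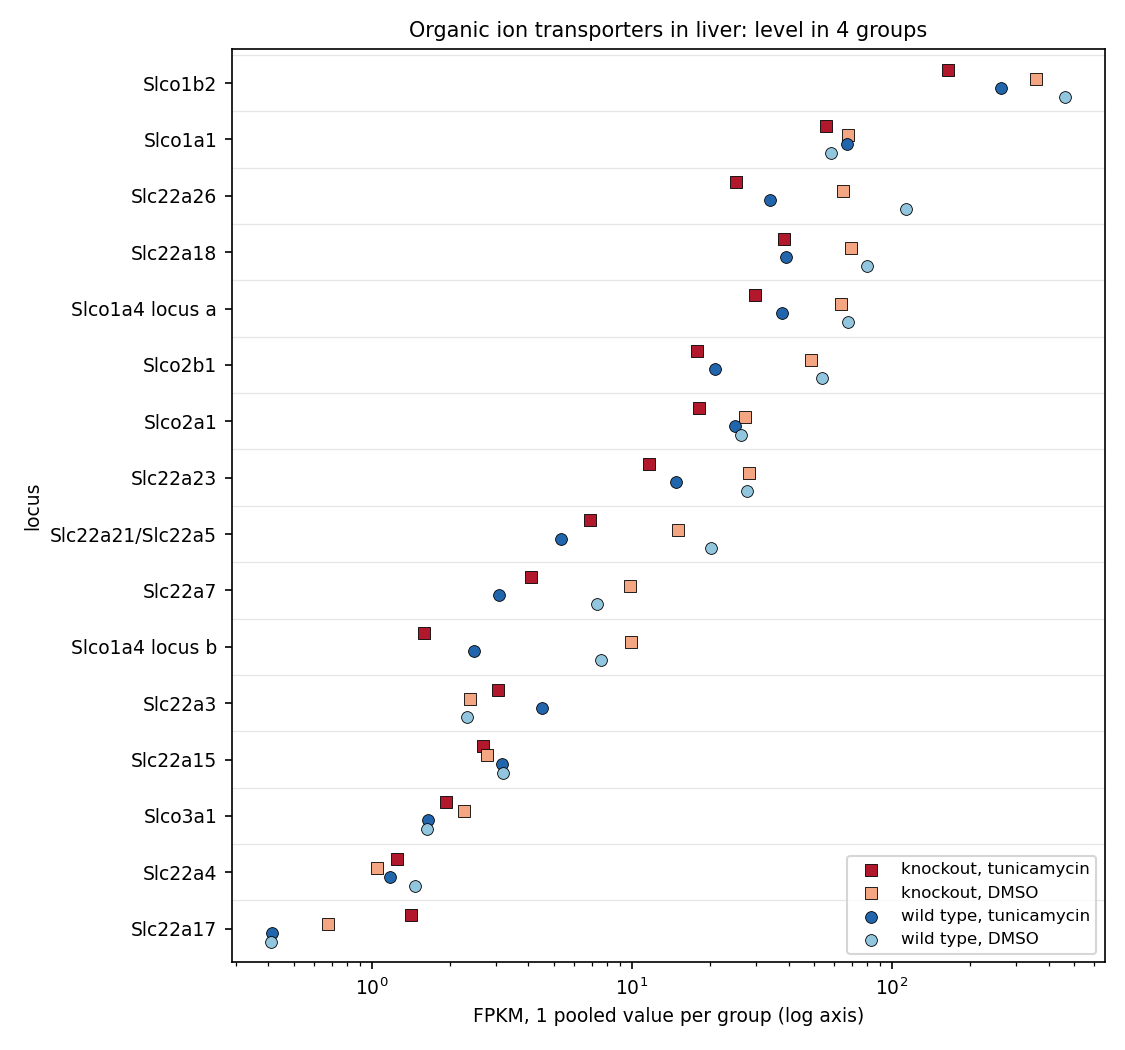
Level of 16 transporter loci outside the shared chromosome 19 interval, as 1 pooled FPKM per group on a log axis, with no error since libraries were pooled. In 10 loci both tunicamycin groups (dark) lie below both DMSO groups (pale), in Slc22a3 they lie above, and 5 loci are mixed. Of all 13471 loci at 1 FPKM or more in a group, 38.4% lie below and 38.4% above in the same sense.

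Slc22a3 (OCT3), a low-affinity carrier of monoamines, had 3.04 FPKM in knockout livers with tunicamycin and 2.37 FPKM with DMSO, against 4.50 and 2.32 FPKM in wild-type livers. It was the only member called higher with tunicamycin, in wild type (log2 0.95, SE 0.25, q = 0.00230), while the knockout change of 0.36 (SE 0.27, q = 0.393) was not called, by the authors' deposited table. The difference between the responses was -0.59 (95% interval -1.33 to 0.14) and did not pass (q = 1.00). Slc22a15, a carrier of zwitterions in human cells, lay between 2.67 and 3.20 FPKM and was called in no comparison, with 0 unadjusted Cuffdiff p-values under 0.05.

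The carnitine transporters share 1 locus. Slc22a5 (OCTN2) brings carnitine into cells with sodium, and Slc22a21 (Octn3) is a mouse carnitine carrier next to it. The merged locus, chr11:53678043-53793529 on mm9, had 6.92 FPKM in knockout livers with tunicamycin and 15.0 FPKM with DMSO, against 5.35 and 20.0 FPKM in wild-type livers. Its log2 fold changes with tunicamycin were -1.12 (SE 0.23) in the knockout and -1.91 (SE 0.24) in wild type, both with q = 0.000396 in the authors' deposited table. The wild-type fall was the deepest called for any member in that genotype. The difference between the responses was 0.78 (95% interval 0.13 to 1.44), and with q = 0.559 over all loci it did not pass. Which of the merged genes carries the value cannot be read from this locus.

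The neighbouring Slc22a4 (OCTN1), a carrier of ergothioneine, lay between 1.04 and 1.47 FPKM and was not called, with 0 unadjusted Cuffdiff p-values under 0.05. Genes that make and use carnitine, a list of 8, had 7 tested. Among these the authors' deposited table called 4 lower and 1 higher with tunicamycin in the knockout, where 14.8% of all tested loci were called lower and 18.1% higher, and 6 lower and 0 higher in wild type, where the shares were 19% and 18.1%. Crat, the carnitine acetyltransferase, was the deepest fall of the list in wild type (log2 -2.06, the authors' deposited table). Bbox1, the last enzyme of carnitine synthesis, was at 39.7 and 86.4 FPKM in knockout livers with tunicamycin and DMSO and at 49.2 and 122 FPKM in wild-type livers (log2 -1.12 and -1.31, the authors' deposited table). The carnitine palmitoyltransferase Cpt2 stood at log2 -1.32 and -1.58 in the authors' deposited table. The mitochondrial acylcarnitine carrier Slc25a20 stood at log2 -0.93 and -1.19. Crot, which makes medium-chain acylcarnitines in peroxisomes, was the member called higher in the knockout (log2 0.61, q = 0.0359, the authors' deposited table).

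Slc22a7 (OAT2), a hepatocyte carrier of cyclic nucleotides and other small anions, had 4.09 FPKM in knockout livers with tunicamycin and 9.86 FPKM with DMSO, against 3.08 and 7.35 FPKM in wild-type livers. Its log2 changes of -1.27 in the knockout and -1.25 in wild type were nearly equal (q = 0.000396 each, the authors' deposited table; difference -0.01, 95% interval -0.76 to 0.73). Slc22a18, an imprinted gene whose substrates are not settled, had 38.3 FPKM in knockout livers with tunicamycin and 69.4 FPKM with DMSO, against 39.0 and 80.5 FPKM in wild-type livers. Slc22a23, an orphan carrier, had 11.7 and 28.1 FPKM in knockout livers with tunicamycin and DMSO, against 14.7 and 27.7 FPKM in wild-type livers. Both fell in both genotypes, Slc22a18 at log2 -0.86 in the knockout and -1.05 in wild type and Slc22a23 at -1.27 and -0.91 (q = 0.000396 each, the authors' deposited table).

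Slc22a26 is the copy of the chromosome 19 cluster that shares no 50-base window with the others, and its locus is its own (chr19:7854331-7922741, mm9). It had 25.1 FPKM in knockout livers with tunicamycin and 65.0 FPKM with DMSO, against 34.0 and 114 FPKM in wild-type livers. It fell with tunicamycin in both, with log2 changes of -1.37 (SE 0.21) in the knockout and -1.74 (SE 0.21) in wild type and q = 0.000396 in the authors' deposited table for each. The 4 groups stood in the order wild type DMSO, knockout DMSO, wild type tunicamycin, knockout tunicamycin from high to low, as they did for Slco1b2, Slc22a18, Slco1a4 locus a and Slco2b1.

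Counted over the members, the authors' deposited table called 0 higher and 11 lower of 27 tested with tunicamycin in the knockout, where 18.1% of all tested loci were called higher and 14.8% lower (33% in either direction). At an unadjusted Cuffdiff p under 0.05, 14 members differed. In wild type it called 1 higher and 9 lower of 25 tested, where 18.1% of all tested loci were called higher and 19% lower (37.1% in either direction). The share of members called in either direction, 40.7% in the knockout and 40.0% in wild type, was near those backgrounds. The calls ran one way among the members in the knockout, with Slc22a3 the exception in wild type, and both ways among all loci. Among members that reached 1 FPKM in both groups, the median log2 fold change was -0.84 in the knockout and -0.90 in wild type, against 0.03 and 0.00 over all such loci. Over all tested members it was -0.71 and -0.91. All 9 members called lower in wild type were also called lower in the knockout, among them Slc22a7, Slc22a18, Slc22a21/Slc22a5, Slc22a23, Slc22a26, Slco1a4 locus a, Slco1b2 and Slco2b1. The calls in the knockout alone were Slco2a1 and the merged Slc22a28/Slc22a30 locus.

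**Figure D3:**
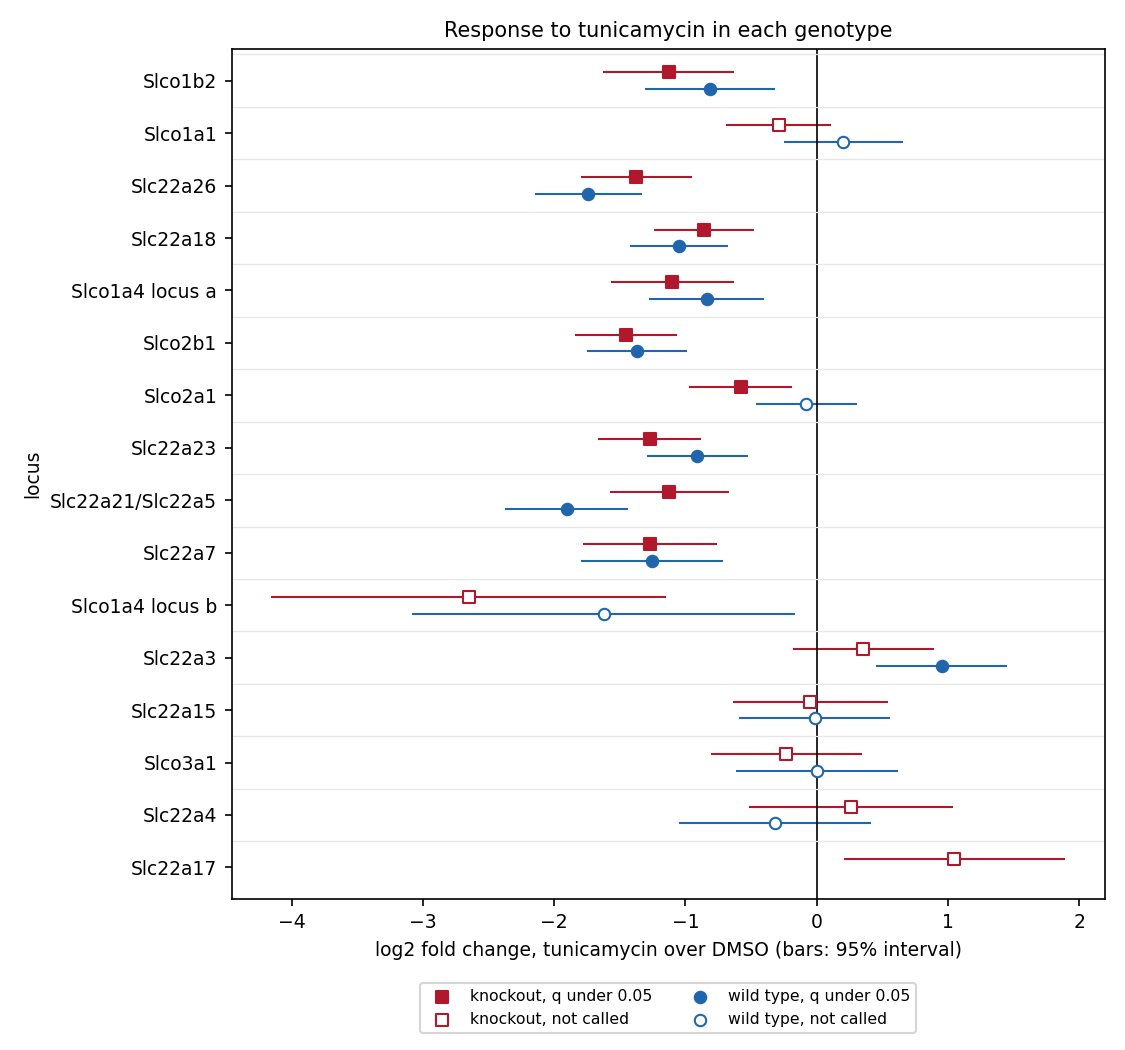
Log2 fold change of 16 transporter loci with tunicamycin over DMSO, in knockout (squares) and wild type (circles), from the authors' deposited table. Bars are 95% intervals from the deposited test statistic and filled symbols have q under 0.05. Slc22a17 was not tested in wild type, and Slc22a3 in wild type is the filled symbol right of 0.

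Summed over all loci outside the shared chromosome 19 interval, Slco transcripts came to 289 FPKM in knockout livers with tunicamycin and 578 FPKM with DMSO, against 419 and 678 FPKM in wild-type livers. Slco1b2 alone made up 68.3% of the sum in wild type with DMSO.

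The difference between the responses of knockout and wild type was tested for 25 members, from the fold changes and test statistics of the authors' deposited table. For 18 of them the deposited statistic and p-value matched each other to within 0.25 of their ratio wherever p was above its floor, and 0 of these 18 passed q under 0.05, with 1 (Slc22a21/Slc22a5) at an unadjusted p under 0.05. The only pass was locus c of Slc22a27, whose statistic does not match its p-value, against 1.03% of 14510 loci in all. For Slco1b2 the difference was -0.32 (95% interval -1.02 to 0.38), for Slc22a26 0.37 (-0.22 to 0.95) and for Slco2b1 -0.08 (-0.63 to 0.46). All 3 intervals include 0 and reach at least 0.63 from it on one side, so equal responses were not shown.

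Between genotypes few members differed. Under tunicamycin the authors' deposited table called 1 higher and 1 lower of 27 tested members, where 3.73% of all tested loci were called higher and 2.19% lower (5.92% in either direction), and 5 members had an unadjusted p under 0.05. Slco1b2 was the lower one, at log2 -0.69 (SE 0.23, q = 0.0180, the authors' deposited table). With q computed within this comparison, or with q under 0.01, Slco1b2 was no longer called. Slc22a17, the higher one, encodes the receptor of lipocalin-2. It had 1.41 FPKM in knockout livers with tunicamycin and 0.680 FPKM with DMSO, against 0.414 and 0.411 FPKM in wild-type livers, a log2 change of 1.77 (SE 0.45, q = 0.00230) by the authors' deposited table. With 1 FPKM added to both groups that change was 0.77, since the gene is low in every group.

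The knockout group with tunicamycin also held transcripts of tissues other than liver. Markers of adrenal cortex summed to 1289 FPKM in knockout and 23.5 FPKM in wild-type livers with tunicamycin (8 loci, with Cyp11b1 and Cyp11b2 merged into 1), those of adrenal medulla to 116 and 0.204 FPKM, those of skeletal muscle to 289 and 3.80 FPKM and those of fat to 263 and 32.8 FPKM. In that knockout group 0 of these 25 marker loci were listed at 0. Many of these differences were not called. Against wild type with tunicamycin, 3 of 8 adrenal cortex and 2 of 5 medulla loci were called higher in the authors' deposited table. So were 5 of 7 muscle and 3 of 5 fat loci. Against the knockout with DMSO, the counts were 1 of 8, 3 of 5, 3 of 7 and 4 of 5 in the same order. Among all tested loci the shares called higher were 3.73% and 18.1%. Whether all 3 libraries held these transcripts cannot be read from pooled values. With DMSO the sums in knockout and wild-type livers were 6.77 and 9.25 FPKM for adrenal cortex, 0.0332 and 0.0767 FPKM for adrenal medulla, 0.701 and 0.511 FPKM for muscle and 28.1 and 18.8 FPKM for fat. In the knockout with DMSO Th, Dbh, Pnmt and Mc2r were at 0, in wild type with DMSO Th, Pnmt and Ckm, and in wild type with tunicamycin the fat gene Plin1. Their part in the Slc22a17 and Slco1b2 values, and in the knockout's response to tunicamycin, was not tested. The other members with an unadjusted p under 0.05 in this comparison, all lower in the knockout and not called, were Slc22a26 (log2 -0.44, q = 0.118), Slco2a1 (-0.46, q = 0.0666) and Slc22a3 (-0.56, q = 0.0820), by the authors' deposited table.

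Under DMSO, 0 members were called higher and 1 lower of 26 tested, where 1.39% of all tested loci were called higher and 1.47% lower (2.86% in either direction), and 1 had an unadjusted Cuffdiff p under 0.05. The member was Slc22a26, at log2 -0.81 (SE 0.21, q = 0.000747, the authors' deposited table), with lane and genotype not separable. Both changes of Slc22a26 between genotypes had the same sign. Among members that reached 1 FPKM in both groups compared, the medians were -0.23 under tunicamycin and -0.05 under DMSO, against -0.06 and -0.09 over all such loci. Over all tested members they were -0.16 and -0.05.

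**Figure D4:**
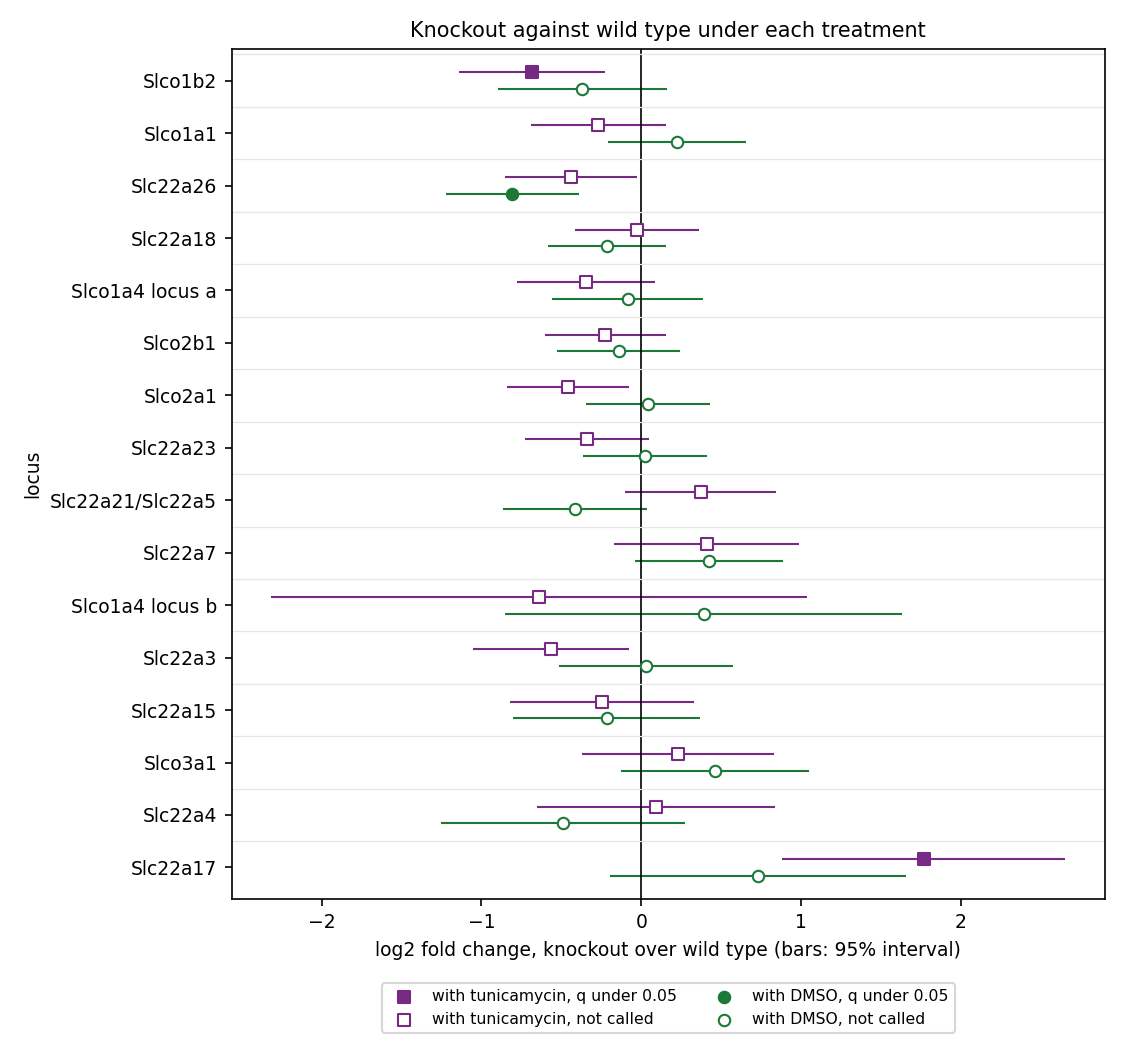
Log2 fold change of 16 transporter loci in knockout over wild type, under tunicamycin (squares) and under DMSO (circles), from the authors' deposited table. Bars are 95% intervals from the deposited test statistic. The filled symbols, with q under 0.05, are Slco1b2 (-0.69) and Slc22a17 (1.77) under tunicamycin and Slc22a26 (-0.81) under DMSO.

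The promoters of these 3 genes are printed because they are the members that were called between genotypes. Each runs from 250 bases before to 50 bases after the start in RefSeq (GRCm38.p6), and capitals mark matches to any of the 8 motifs searched. The regions are chr6:141629268-141629567 on the plus strand for Slco1b2, chr14:54913083-54913382 on the minus strand for Slc22a17 and chr19:7802618-7802917 on the minus strand for Slc22a26.
Slco1b2: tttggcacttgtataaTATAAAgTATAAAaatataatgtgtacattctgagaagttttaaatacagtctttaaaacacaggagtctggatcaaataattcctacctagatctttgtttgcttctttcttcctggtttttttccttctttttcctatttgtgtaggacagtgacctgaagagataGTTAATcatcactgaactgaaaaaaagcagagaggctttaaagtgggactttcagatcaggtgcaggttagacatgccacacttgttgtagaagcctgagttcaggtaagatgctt
Slc22a17: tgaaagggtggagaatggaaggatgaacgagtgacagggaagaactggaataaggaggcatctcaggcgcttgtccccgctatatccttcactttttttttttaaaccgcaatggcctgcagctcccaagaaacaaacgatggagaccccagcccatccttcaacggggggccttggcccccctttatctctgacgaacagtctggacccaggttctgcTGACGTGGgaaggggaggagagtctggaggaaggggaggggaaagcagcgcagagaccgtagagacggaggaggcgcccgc
Slc22a26: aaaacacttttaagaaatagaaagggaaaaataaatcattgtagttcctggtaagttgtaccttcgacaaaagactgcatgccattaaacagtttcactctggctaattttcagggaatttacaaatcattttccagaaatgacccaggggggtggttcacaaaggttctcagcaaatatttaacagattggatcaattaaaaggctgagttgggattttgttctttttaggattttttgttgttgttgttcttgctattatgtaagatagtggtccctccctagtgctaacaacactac
In Slco1b2 the capitals are the HNF1 half-site GTTAAT at -66 and TATAAA at -234 and -227. In Slc22a17 they are TGACGTGG, a form of the element known from unfolded protein response genes, at -31. None of the 8 motifs occurs in the Slc22a26 window.

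Of the 40 symbols, 35 had a promoter in the RefSeq table, with 40 starts in all. Motifs were searched on both strands. The C/EBP-ATF element TGATGNAA, to which ATF4 binds with C/EBP proteins, occurs in 3.97% of all 32851 promoters and in 1 of the 40, that of Slco2a1. The cAMP response element TGACGTCA occurs in 1.79% of all promoters and in 0 of the 40. TGACGTGG is held by 0.676% of all and by that of Slc22a17 alone, and the ER stress element by 0.119% and by none of the 40. GTTAAT is found in 7.1% of all promoters and 4 of the 40 (Slc22a6, Slc22a8, Slc22a29 and Slco1b2), and the C/EBP site TTNNGCAA in 10.8% and 5 of the 40 (Slc22a6, Slc22a28, Slc22a29, Slc22a30 and Slco1a5). The HNF4 direct repeat, in 0.0396% of all, occurs in none of the 40, and TATAAA, in 13.6% of all, in 8.

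The 10 loci of the shared chromosome 19 interval held the highest values of the family, and they were unsteady between groups. Slc22a27 locus a had 3309 FPKM in knockout livers with tunicamycin and 4844 FPKM with DMSO, against 3553 and 6612 FPKM in wild-type livers. Locus b had 2052 and 728 FPKM in the knockout with tunicamycin and DMSO, against 1363 and 733 FPKM in wild type. Locus c had 340 and 1514 FPKM in the knockout, against 734 and 1.95 FPKM in wild type. So loci that carry the same name and interval did not move together.

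Locus d stood high in 1 group: it had 28.0 and 24.4 FPKM in the knockout with tunicamycin and DMSO, against 1677 and 81.0 FPKM in wild type. Locus e had 82.7 and 82.3 FPKM in the knockout, against 11.6 and 37.4 FPKM in wild type, and locus f had 5.60 and 6.83 FPKM, against 5.42 and 12.1 FPKM. Slc22a29 locus a was at 35.3 FPKM in knockout livers with tunicamycin and listed at 0 in the other 3 groups, while locus b lay between 0.506 and 1.32 FPKM. Despite these spans Cuffdiff called 0 of the 8 Slc22a27 and Slc22a29 loci in any of the 4 comparisons, and 0 of their tests had an unadjusted p under 0.05.

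The merged Slc22a28/Slc22a30 locus was steadier, with 25.2 FPKM in knockout livers with tunicamycin and 66.5 FPKM with DMSO, against 24.5 and 61.5 FPKM in wild-type livers. It was called lower in the knockout (log2 -1.40, SE 0.40, q = 0.00423), and its change in wild type was of like size with a wider error (-1.33, SE 0.95, q = 0.224, the authors' deposited table). The difference between the responses was -0.07 (95% interval -2.09 to 1.94). The locus named Slc22a30 alone had 0.809 and 16.4 FPKM in the knockout with tunicamycin and DMSO, against 1.08 and 12.7 FPKM in wild type. These differences missed the threshold in the authors' deposited table (q = 0.0598 in the knockout and 0.0813 in wild type). The coding sequences of Slc22a28 and Slc22a30 share 50-base windows, and whether either locus reads 1 gene was not tested. The sequences of the loci themselves were not compared.

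**Figure D5:**
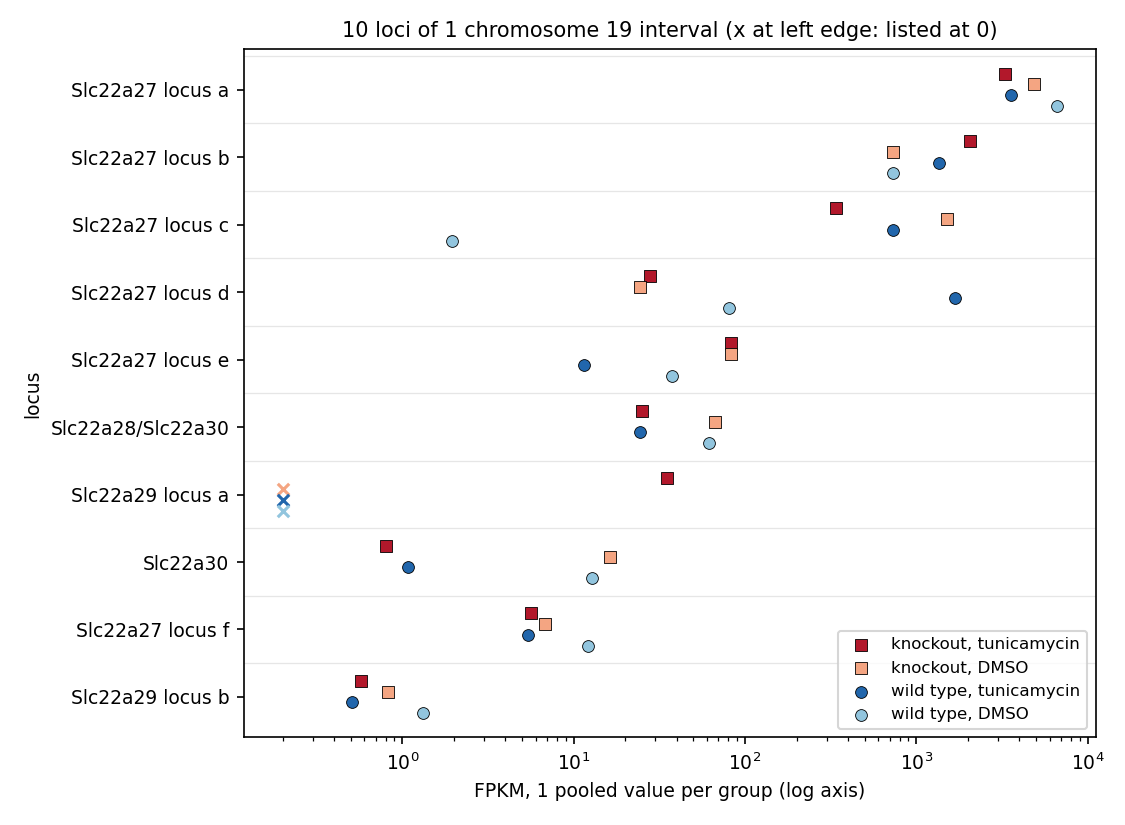
Level of the 10 loci that share 1 interval on chromosome 19, as 1 pooled FPKM per group on a log axis, with no error since libraries were pooled. Crosses at the left edge mark groups listed at 0 (Slc22a29 locus a), and Slc22a27 loci c and d each span more than a 10-fold range between groups.

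Other carriers of the same substrates were read from lists chosen with the members. The first list holds 12 carriers apart from the canalicular pumps below. Of these the authors' deposited table called 1 higher and 5 lower of 11 tested with tunicamycin in the knockout. In wild type it called 1 higher and 6 lower of 10. Among all tested loci 18.1% were higher and 14.8% lower in the knockout, and 18.1% were higher and 19% lower in wild type. Slc10a1 (NTCP), the sodium-dependent bile acid carrier, had 111 and 412 FPKM in knockout livers with tunicamycin and DMSO, against 151 and 484 FPKM in wild-type livers (log2 -1.90 and -1.68, q = 0.000396 each, the authors' deposited table). The nucleoside carrier Slc29a1 and the cation extruder Slc47a1 (MATE1) were lower too, at log2 -1.81 and -1.74 in the knockout and -1.56 and -1.91 in wild type in the authors' deposited table. The exporter Abcc4 (MRP4) rose, to 6.74 FPKM in knockout livers with tunicamycin, against 1.52 FPKM with DMSO, and to 10.6 FPKM in wild-type livers with tunicamycin, against 1.29 FPKM with DMSO. Between genotypes under tunicamycin Abcc4 was lower in the knockout (log2 -0.66, q = 0.00749, the authors' deposited table). Of 11 tested carriers of this list, 3 were called lower there and 0 higher. Among all tested loci 2.19% were called lower and 3.73% higher in that comparison.

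Of 7 canalicular export pumps, 2 were higher and 2 lower in the knockout with tunicamycin and 1 was higher and 3 were lower in wild type, by the authors' deposited table, where 33% of all tested loci in the knockout and 37.1% in wild type were called in either direction. The phospholipid flippase Abcb4 rose in both (log2 0.82 and 1.09), and Abcg2 and Atp8b1 fell in both. The bile salt export pump Abcb11 had 106 FPKM in knockout and 172 FPKM in wild-type livers with tunicamycin (log2 -0.70, q = 0.0143, the authors' deposited table). Abcb1b, a multidrug pump, had 8.19 FPKM in knockout livers with tunicamycin and 0.327 FPKM with DMSO, against 0.218 and 1.20 FPKM in wild-type livers. Its part from the adrenal, muscle and fat transcripts named above was not tested.

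Of 14 regulators known for such carriers, 11 were lower with tunicamycin in the knockout and 9 in wild type, and 0 were higher in either, by the authors' deposited table, against 14.8% of all tested loci lower in the knockout and 19% in wild type and 18.1% higher in each. The xenobiotic receptor CAR (Nr1i3) had 15.7 and 148 FPKM in knockout livers with tunicamycin and DMSO, against 15.2 and 177 FPKM in wild-type livers. The hepatocyte factors Onecut1 and Foxa2, the fatty acid sensor Ppara and the corepressor SHP (Nr0b2) were lower in both as well, with log2 changes between -4.29 and -2.14 in the knockout and between -3.44 and -2.07 in wild type in the authors' deposited table. So were the hepatocyte factor Cebpa (log2 -1.84 in the knockout and -2.56 in wild type) and the aryl hydrocarbon receptor Ahr (-2.30 and -1.89), in the same table. Between genotypes under tunicamycin, Hnf4a had 121 FPKM in knockout and 186 FPKM in wild-type livers (log2 -0.63, q = 0.0339) and Nr0b2 3.55 and 6.60 FPKM (log2 -0.89, q = 0.0389), the 2 of 14 that the authors' deposited table called. Among all tested loci 2.19% were called lower and 3.73% higher there.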

How the data were processed

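Poly(A) RNA of mouse liver was sequenced in 12 libraries, 3 in each of 4 groups; the group of each library was taken from its title. Per the submitters' processing notes, reads were handled with bcl2fastq, TopHat2 2.0.4, Cufflinks and Cuffdiff on mm9. Not given in the sources used here: annotation, filters and library scaling. The table that the authors deposited holds 1 pooled FPKM per locus and group. Per the file headers it also has, for each of 6 comparisons, the log2 fold change with its p-value and q-value and the test statistic (a score), of which 4 were used here. The deposited q-values equal a Benjamini-Hochberg adjustment over all 90828 tests of the 6 comparisons. A stray last column (1) was not used.

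Fold changes were turned so that knockout stands over wild type and tunicamycin over DMSO. A locus was called at a deposited q under 0.05 with status OK. The standard error of a fold change was the fold change divided by the deposited statistic, after that statistic was rescaled by 1 factor for each comparison to match the p-values. The difference between responses was divided by its standard error, with a two-sided normal p and Benjamini-Hochberg adjustment over all 14510 loci; the script was tested on simulated data. Coding sequences came from GENCODE M21 on GRCm38 and promoters from RefSeq on GRCm38.p6; no coordinate was converted between builds. Python 3.11.15, numpy 2.4.6, pandas 2.3.3, scipy 1.17.1, Biopython 1.88 and matplotlib 3.10.9 were used.

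Every member with at least 1 FPKM in a group is named with its values, except 1 that is counted but not reported here; from the other lists, at most 6 called genes per list and comparison were named by size of fold. The members and lists were chosen with earlier results of these data known. Alternatives were q within 1 comparison, q under 0.01, a 1 FPKM filter, single-name loci, re-centring on the median, pseudocounts of 0.1 and 1, other loci of a symbol and, added after the data were seen, leaving out the shared chromosome 19 interval and a standard error from the p-value. Nothing says whether the libraries of a group are separate animals, so p-values measure the spread between these libraries as Cuffdiff modelled it.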

Additional observations from a re-analysis of the deposited data

Results flagged for a closer look

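The tunicamycin response of Slc22a27 locus c differed between genotypes by -10.71 on the log2 scale, knockout minus wild type (95% interval -13.9 to -7.57, q = 1.62e-08), by the test of the difference itself. The locus had 340 and 1514 FPKM in knockout livers with tunicamycin and DMSO, against 734 and 1.95 FPKM in wild-type livers. Its deposited statistics do not match its deposited p-values: in the authors' deposited table the response has p = 0.562 in the knockout and p = 0.321 in wild type, and neither is called. With the standard error taken from those p-values, an alternative chosen after seeing the data, the difference had an SE of 9.39 and q = 1.00. The locus shares its interval with 12 other loci. The coding sequence of the Slc22a27 gene is alike to the copies compared at 74.2% (Slc22a26) to 97.3% (Slc22a29) of bases. The sequence of locus c itself was not compared.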

How the results depend on the processing

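Of 51 recomputed counts of called members, 46 stayed within 1.5 times the reported count and 5 did not. A count could stay in that range while a member lost its call, as with single-name loci in wild type (8 lower with tunicamycin, against 9). Re-centring kept the deposited calls and could change only their direction. With q computed within each comparison alone, 1 member (Slc22a17) was called higher with tunicamycin in the knockout, against 0, and 0 members were called lower in the knockout under tunicamycin, against 1 (Slco1b2). The count of lower members in the knockout under tunicamycin was also 0 with q under 0.01. With the standard error from the deposited p-value, 0 members passed the test of the difference, against 1. The cause of these changes was not tested. Leaving out the 10 loci of the shared chromosome 19 interval, like the last alternative chosen after seeing the data, also left 0 members past the test of the difference, against 1, and moved no count of calls by more than 1.5 times. Among single loci 366 values held, 17 moved and 4 lost their call, most at the second loci of Slc22a27, Slc22a30 and Slco1a4. A pseudocount of 1 moved 4 of 103 fold changes (3 of Slc22a17, 1 of Slc22a30), and a pseudocount of 0.1 or re-centring moved 0. No paired analysis was possible because each group has 1 pooled value and the labels give no replicate numbers, and leaving out single libraries could not be run for the same reason. The depth of the libraries is unknown.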
